A study of Mus musculus with 4 samples.

Results

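Chemokines are small secreted proteins that steer the migration of leukocytes and other cells, and chemokine receptors are the membrane proteins, mostly coupled to Gi proteins, that bind them. To compare the secreted side of this system with the receiving side in Tet2 KO and WT myoblasts, the genes with symbols that start with Ccl, Cxcl, Cx3cl, Xcl, Ccr, Cxcr, Cx3cr, Xcr or Ackr followed by a digit were taken from the gene table. This rule, which used no expression value, found 62 of the 24445 genes listed, of which 39 encoded ligands and 23 encoded receptors.

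The RNA came from primary myoblasts of C57BL/6 mice, as 2 WT libraries and 2 Tet2 KO libraries. Tet2 is a dioxygenase that oxidizes methylated cytosine and so takes part in active DNA demethylation, and the Tet2 KO mice carried a deletion of its exon 3 in every tissue. Muscle stem cells (satellite cells) were sorted from hindlimb muscle as CD45-, CD11b-, CD31-, Sca1-, CD34+ and Integrin α7+ cells, and were grown on collagen for at least 3 days into MyoD+ myoblasts, with no other treatment. The table holds 1 pooled FPKM value per gene and group (fragments per kilobase of transcript, scaled to the mapped fragments of a library), so no library can be seen on its own. No SD, interval or test could be computed, the depth is unknown, and every difference given here is a description of these pooled values without a replicate check.

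In these RNA samples from whole cultures, fewer cells of a type and less RNA per cell cannot be told apart. Tet2 itself (chr3:133126641-133207354 in mm9) was listed at 5.79 FPKM in Tet2 KO against 6.64 FPKM in WT, a value that covers the whole gene and does not check the deleted exon. The myoblast label had its markers: all 8 listed genes were above 1 FPKM, with Myod1, the myogenic master regulator, at 313 FPKM in Tet2 KO against 336 FPKM in WT. Leukocyte genes were also present although CD45+ and CD11b+ cells had been gated out before culture, and were higher in Tet2 KO. Ptprc, which encodes CD45, was at 5.67 and 1.36 FPKM, and Itgam, which encodes CD11b, was at 10.1 and 2.09 FPKM. Ly6a, a gene of the Sca1 antigen that was gated against, was at 288 and 278 FPKM.

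Chemokines are sorted by the spacing of their N-terminal cysteines into CC, CXC, CX3C and XC families. Inflammatory members, such as the ligands of Ccr2 and Cxcr2, are induced by cytokines and draw monocytes and neutrophils, and after muscle injury they are known for recruiting the leukocytes that clear debris. Homeostatic members, such as Cxcl12, position progenitor cells, and atypical receptors bind ligands without Gi signalling and remove them from the surroundings.

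More ligands and receptors were higher than lower in Tet2 KO. Of the 62 genes, 26 reached a mean of 1 FPKM over the 2 groups, and these were 21 of 39 ligands and 5 of 23 receptors. On the scale used throughout, log2((Tet2 KO FPKM + 1)/(WT FPKM + 1)), 9 of the 21 ligands (42.9%) and 3 of the 5 receptors (60.0%) were at least 2-fold higher in Tet2 KO, where 2.08% of all 11692 genes at this level were. Among all genes with a mean of 1 to 5 FPKM, the share at least 2-fold higher was 4.76%. None of the 26 was at least 2-fold lower, compared with 1.21% of all genes, and 17 ligands and 4 receptors had a log2 ratio above 0. The added 1 FPKM keeps low values from giving large ratios and understates the difference of low genes, so ratios of the FPKM values themselves are given for single genes as well. The ligands Ccl4, Ccl12 and Ccl9 and 1 of the 5 receptors reached the mean of 1 FPKM only through their Tet2 KO value and so had to differ. Among genes at 1 FPKM or more in both groups, 6 of 18 ligands and 2 of 4 receptors were at least 2-fold higher. Of all 11349 genes at that level, 168 were.

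**Figure D1:**
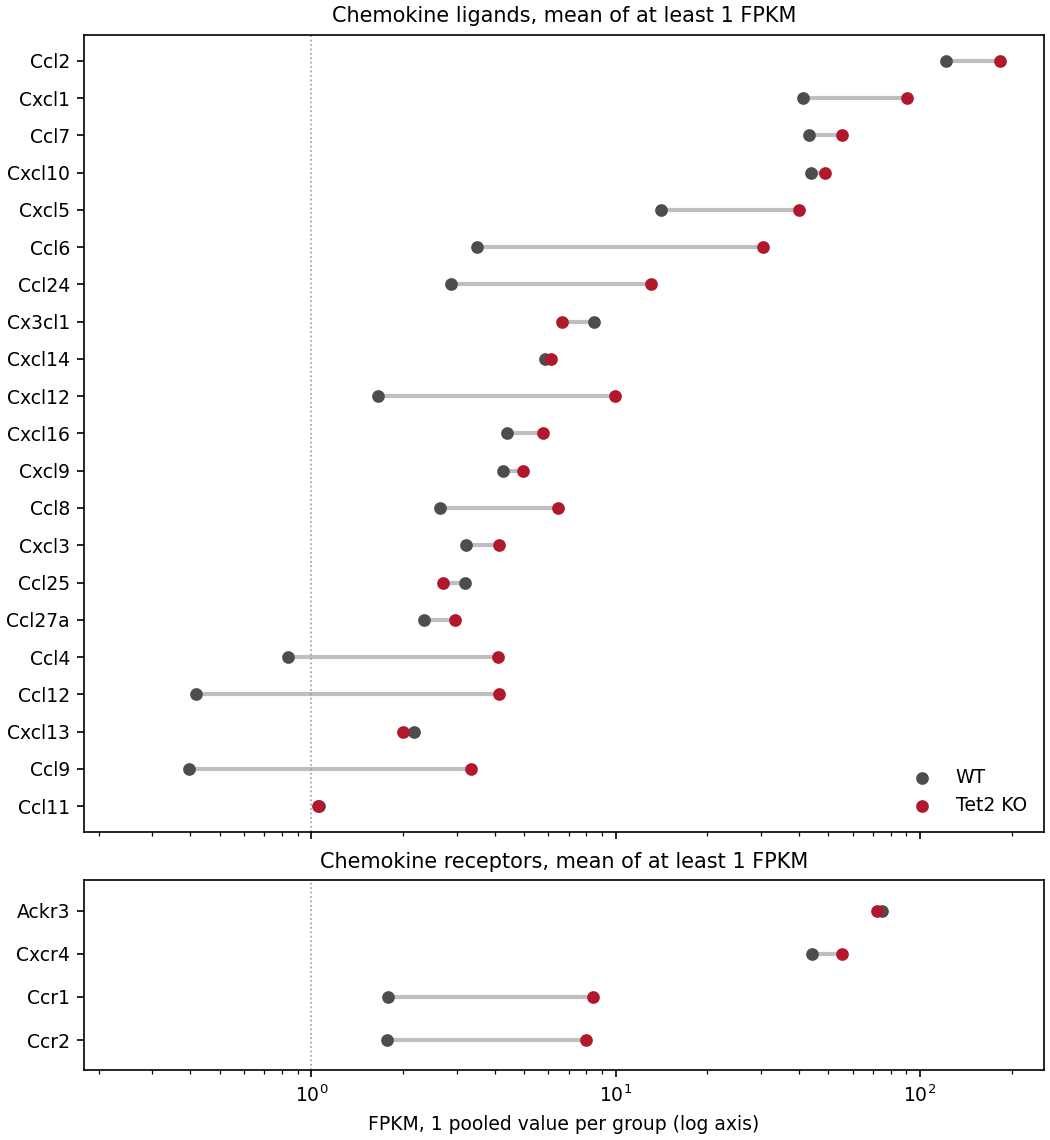
FPKM of 21 chemokine ligands (top) and 4 chemokine receptors (bottom) with a mean of at least 1 FPKM, on a log axis, with 1 pooled value per group (grey WT, red Tet2 KO) joined by a line and no error bars because no replicate values were available. Ccl2 is the highest ligand in both groups, Ccl6 and Cxcl12 have long lines, and the 2 highest receptors, Ackr3 and Cxcr4, have short ones.

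Much of the ligand RNA came from few genes. Ccl2, Cxcl1, Ccl7, Cxcl10 and Cxcl5 held 78.9% of the summed ligand FPKM in Tet2 KO and 84.2% in WT. The sum over all 39 ligands was 530 FPKM in Tet2 KO against 314 FPKM in WT, 1.69 times as high. Of the difference of 216 FPKM, Ccl2 gave 28.6%, Cxcl1 23.0%, Ccl6 12.5% and Cxcl5 11.9%. The other 34 ligands summed to 112 FPKM in Tet2 KO against 49.7 FPKM in WT, so their sum differed by the larger factor. Ccl6 alone gave 27.1 FPKM of that difference, and the less abundant Cx3cl1, Ccl25, Cxcl13 and Ccl11 had log2 ratios below 0.

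The CC ligands included the most abundant chemokine of these cells and most of the large differences. Of 24 genes, 11 reached the mean of 1 FPKM, with a median log2 ratio of 1.03. Of the 11, 6 (54.5%) were at least 2-fold higher in Tet2 KO, against 2.08% of all genes. Ccl4, Ccl9 and Ccl12, among these 6, reached the mean only through their Tet2 KO value, and the median includes them. Ccl2 (MCP-1, chr11:81849079-81850954), the main attractant of Ccr2-bearing monocytes, was at 183 FPKM in Tet2 KO against 121 FPKM in WT, 1.51 times as high and a log2 ratio of 0.59. This was under 2-fold, yet 98.6% of genes of like level (mean of 25 FPKM or more) had a lower log2 ratio. Ccl7 (MCP-3), its neighbour and another Ccr2 ligand, was at 55.4 and 43.3 FPKM with a log2 ratio of 0.35. Neither of these abundant ligands was past 2-fold.

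Ccl12 (MCP-5, a Ccr2 ligand of rodents, chr11:81915347-81916901) was at 4.13 FPKM in Tet2 KO against 0.417 FPKM in WT, with a log2 ratio of 1.86. The ratio of its FPKM values was 9.89, against a WT value below 1 FPKM. Ccl8, which attracts Ccr8-bearing T cells in mice, was at 6.47 and 2.65 FPKM with a log2 ratio of 1.03, just past 2-fold. Ccl11 (eotaxin-1), an eosinophil attractant in the same cluster, was at 1.05 and 1.06 FPKM and showed a log2 ratio of -0.01.

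Ccl6 (chr11:83395563-83437195), a myeloid cell product that acts through Ccr1, had the highest log2 ratio of the 26 genes with 1 FPKM added, while Ccl12 had a higher FPKM ratio. It was at 30.6 FPKM in Tet2 KO against 3.51 FPKM in WT, 8.71 times as high, with a log2 ratio of 2.81. Among genes with a mean of 5 to 25 FPKM, 99.9% had a lower log2 ratio and 1.63% were at least 2-fold higher. Its neighbours pointed the same way at much lower levels. Ccl9 (MIP-1γ, a Ccr1 ligand) was at 3.33 and 0.395 FPKM with a log2 ratio of 1.63, and Ccl4 (MIP-1β) was at 4.10 and 0.838 FPKM with a log2 ratio of 1.47. Ccl3 (MIP-1α) did not reach the mean of 1 FPKM, at 1.13 FPKM in Tet2 KO against 0.117 FPKM in WT. Its log2 ratio of 0.93 was under 2-fold with 1 FPKM added and 2.51 with 0.1 FPKM added.

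Ccl24 (eotaxin-2, chr5:136045807-136048913), which alternatively activated macrophages are known to secrete, was at 13.02 FPKM in Tet2 KO against 2.88 FPKM in WT, with a log2 ratio of 1.86. The CC ligands better known from epithelial and thymic cells were at similar levels in both groups. Ccl25 was at 2.70 and 3.20 FPKM (log2 ratio -0.18), and Ccl27a was at 2.97 and 2.34 FPKM (log2 ratio 0.25). The Ccl27a value is uncertain, because 66.6% of its transcript is matched at 95% identity or more by another annotated gene and its exons overlap those of Il11ra1 on the other strand.

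The CXC ligands separated into genes past 2-fold and genes near equal levels. Of 13 genes, 9 reached the mean of 1 FPKM, with a median log2 ratio of 0.28. Of the 9, 3 (33.3%) were at least 2-fold higher in Tet2 KO, against 2.08% of all genes. Cxcl1 (KC, chr5:91320271-91322141), a neutrophil attractant that acts through Cxcr2, was at 90.8 FPKM in Tet2 KO against 41.1 FPKM in WT, 2.21 times as high, with a log2 ratio of 1.12. Cxcl5 (LIX, chr5:91188324-91190651), also a Cxcr2 ligand, was at 39.9 and 14.1 FPKM, 2.83 times as high, with a log2 ratio of 1.44. Both were above 99% of genes of like level, of which 0.685% were at least 2-fold higher. Cxcl3, encoded between them and a Cxcr2 ligand too, was at 4.12 and 3.23 FPKM with a log2 ratio of 0.28. Cxcl2, the last gene of the cluster, was at 0.974 and 0.674 FPKM.

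Interferons induce Cxcl9, Cxcl10 and Cxcl11, which attract Cxcr3-bearing T cells, and the former pair was at near equal levels. Cxcl10 was at 48.7 FPKM in Tet2 KO against 43.9 FPKM in WT (log2 ratio 0.15), and Cxcl9 was at 4.94 and 4.27 FPKM (log2 ratio 0.17). Cxcl11 stayed under the minimum at 0.697 and 0.341 FPKM, an FPKM ratio of 2.05. The exons of Cxcl10 overlap those of Art3 on the other strand, and the table lists Cxcl10 and Cxcl11 with the same locus, so reads from these genes may not have been kept apart. The abundant Cxcl10 thus differed less than Cxcl1, which was at a like level in WT.

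The promoters of Cxcl1, Cxcl3 and Cxcl10 are shown because they share a κB element while the 3 genes differ in their log2 ratio, and that of Ccl6 because Ccl6 had the highest log2 ratio. Each is 1 of the 300-base windows of RefSeq, from 250 bases before to 50 bases after the annotated start, in the strand of the gene and in build GRCm38.p6, which is not the build of the expression table. Capitals mark matches to the κB consensus, to TTTCNNTTT (the core of interferon response elements) or to AGGAAGT (the core of PU.1-type ETS sites), read on both strands.
Cxcl1, chr5:90890995-90891294, plus strand: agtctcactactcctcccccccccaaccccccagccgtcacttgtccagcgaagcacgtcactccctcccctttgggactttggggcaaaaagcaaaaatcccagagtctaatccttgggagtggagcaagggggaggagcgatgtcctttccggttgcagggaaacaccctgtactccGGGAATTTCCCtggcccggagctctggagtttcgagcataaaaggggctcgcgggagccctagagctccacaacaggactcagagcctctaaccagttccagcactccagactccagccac
Cxcl3, chr5:90785851-90786150, plus strand: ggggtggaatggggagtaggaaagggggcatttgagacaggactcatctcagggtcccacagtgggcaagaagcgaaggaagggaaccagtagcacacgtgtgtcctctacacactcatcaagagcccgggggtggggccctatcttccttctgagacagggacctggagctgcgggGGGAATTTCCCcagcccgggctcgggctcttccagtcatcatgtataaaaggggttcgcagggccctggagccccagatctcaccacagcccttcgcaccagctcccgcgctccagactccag
Cxcl10, chr5:92348840-92349139, minus strand: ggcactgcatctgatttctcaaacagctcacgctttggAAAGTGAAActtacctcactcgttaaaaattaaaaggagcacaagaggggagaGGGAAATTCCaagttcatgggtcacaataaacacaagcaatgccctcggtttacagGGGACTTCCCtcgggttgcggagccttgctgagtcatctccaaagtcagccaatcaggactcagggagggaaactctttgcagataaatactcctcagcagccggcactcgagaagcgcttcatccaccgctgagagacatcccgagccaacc
Ccl6, chr11:83593038-83593337, minus strand: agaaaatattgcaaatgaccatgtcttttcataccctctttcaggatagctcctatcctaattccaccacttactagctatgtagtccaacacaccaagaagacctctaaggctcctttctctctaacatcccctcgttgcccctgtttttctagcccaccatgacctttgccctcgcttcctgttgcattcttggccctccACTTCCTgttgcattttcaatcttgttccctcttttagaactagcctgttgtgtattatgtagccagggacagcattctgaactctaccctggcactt
Cxcl1 and Cxcl3 carried the same match, GGGAATTTCC, beginning 71 and 73 bases before the start, which overlaps a match on the other strand. Cxcl10 carried GGGAAATTCC and GGGACTTCCC, 159 and 103 bases before the start, and a match to TTTCNNTTT on the other strand. Ccl6 held no κB match and 1 match to AGGAAGT.

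The motifs were looked up after the expression values had been seen, and a match describes the letters only. RefSeq windows were at hand for 46 of the 62 genes, and 53 windows were searched because some genes have several. The κB consensus was found in 10 of the 53 windows (18.9%), 7 of ligands and 3 of receptors, and in 4.51% of all 32851 windows. TTTCNNTTT was found in 11.3% against 10.6% of all windows, AGGAAGT in 17.0% against 9.35%, and CAGCTG, an E box that MyoD can bind, in 17.0% against 16.3%. Of the genes with a κB match, only Cxcl1 and Ccl9 were at least 2-fold higher, and Ccl20, Cxcl2, Ackr2, Ccr3 and Ccr6 were under the mean of 1 FPKM. Of those with an AGGAAGT match, only Ccl6 and Ccl12 were at least 2-fold higher. Windows for Ccl2, Ccl4, Ccl5, Ccl7, Ccl11, Ccl21c, Ccl24, Ccl26, Ccr7, Ccr10, Cxcl5, Cxcl11, Cxcl16, Cxcl17 and Cxcr5 were not used here.

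The remaining ligands include Cxcl12 (SDF-1, chr6:117118553-117131386), which holds stem and progenitor cells in their niches through Cxcr4 and is bound and removed by Ackr3. Cxcl12 was at 9.93 FPKM in Tet2 KO against 1.65 FPKM in WT, 6.00 times as high, with a log2 ratio of 2.04. Its log2 ratio ranked second to that of Ccl6 with 1 FPKM added, but that of Ccl12 was higher in TPM, and those of Ccl12 and Ccl9 were higher with 0.1 FPKM added. Cxcl14 was at 6.13 and 5.86 FPKM (log2 ratio 0.06). Cxcl16, a membrane-bound ligand of Cxcr6, was at 5.75 and 4.40 FPKM (log2 ratio 0.32), and 20.5% of its transcript is matched by the overlapping gene Zmynd15. Cxcl13, a B cell attractant, was at 1.998 and 2.169 FPKM (log2 ratio -0.08). Cx3cl1 (fractalkine), a membrane-anchored ligand of Cx3cr1, was at 6.63 and 8.49 FPKM and had the lowest log2 ratio of the 26 genes, -0.31.

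Of the ligands, 18 stayed under a mean of 1 FPKM. Ccl1, Ccl19, Ccl21a, Ccl21b, Ccl21c, Ccl26, Ccl27b, Ccl28 and Cxcl17 were listed at 0 in both groups, and Ccl21a, Ccl21b and Ccl21c share their full transcript sequence. Another annotated gene matches 96.6% of the Ccl19 transcript, Ccl27a matches that of Ccl27b in full, and Ccl21b, Ccl21c and Ccl28 are listed on random contigs. How such reads were assigned is not known, so these values of 0 are uncertain. The other 9 were Cxcl2, Ccl3, Cxcl11, Ccl5, Ccl17, Xcl1, Ccl20, Ccl22 and Cxcl15, none above 1.13 FPKM. Ccl5 (RANTES), a product of activated T cells and of interferon-treated cells, was at 0.551 FPKM in Tet2 KO against 0.486 FPKM in WT. The ligands of lymphoid organs and epithelia, Ccl19, the Ccl21 genes and Ccl28, were thus among those listed at 0, with this limit.

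Receptor RNA was dominated by Ackr3 and Cxcr4, the receptors of Cxcl12, which together held 84.1% of the summed receptor FPKM in Tet2 KO and 94.5% in WT. Ackr3 (formerly Cxcr7, chr1:92100555-92112297), the atypical scavenging receptor, was at 71.9 FPKM in Tet2 KO against 74.9 FPKM in WT with a log2 ratio of -0.06. Cxcr4 (chr1:130484776-130488876), which muscle stem cells and leukocytes carry, was at 55.2 and 44.0 FPKM, 1.25 times as high, with a log2 ratio of 0.32 that was above 96.8% of genes of like level. It gave 44.0% of the difference of 25.4 FPKM between the summed receptor values. Neither was past 2-fold, whereas their ligand Cxcl12 was.

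Ccr1 and Ccr2, which monocytes and macrophages carry, also reached the mean of 1 FPKM, and both were at least 2-fold higher in Tet2 KO. Ccr1 (chr9:123876959-123883525) was at 8.44 FPKM in Tet2 KO against 1.79 FPKM in WT, with a log2 ratio of 1.76. Ccr2 (chr9:124016922-124023879), the monocyte receptor of Ccl2, was at 8.01 and 1.78 FPKM with a log2 ratio of 1.70. Their FPKM ratios of 4.72 and 4.51 lay close together. The log2 ratio of each was above that of 99% of genes of like level. That level was a mean of 5 to 25 FPKM for Ccr1 and of 1 to 5 FPKM for Ccr2.

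Of the receptors, 18 stayed under a mean of 1 FPKM, and none was above 0.759 FPKM in either group. Cxcr6 was at 0.759 and 0.571 FPKM, and Cxcr2, the neutrophil receptor of Cxcl1 and Cxcl5, was at 0.746 FPKM in Tet2 KO against 0.280 FPKM in WT, a ratio of 2.67. Cxcr1 and Ccr8 were listed at 0 in both groups. Receptors known from lymphocytes were also low, with Ccr7 at 0.332 and 0.365 FPKM and Cxcr3 at 0.0887 and 0.0734 FPKM. The receptor side thus included the Cxcl12 receptors, neither past 2-fold, and Ccr1 and Ccr2, both past it.

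The contrast between ligands and receptors depended on which low genes were counted. The median log2 ratio was 0.35 over 21 ligands and 1.53 over 5 receptors, against -0.0044 over all genes, so that the ligand median minus the receptor median was -1.18. With a mean of at least 5 FPKM required, 11 ligands and 3 receptors were left and this difference turned to 0.27, and with no minimum over all 62 genes it was 0.12. With 1 FPKM required in both groups, which leaves out the 3 ligands and 1 receptor that had to differ, the medians were 0.30 and 1.01 and the difference was -0.71. On the summed FPKM the order was also the other way, since ligands were 1.69 times and receptors 1.20 times as high in Tet2 KO. Without Ackr3 and Cxcr4 the other 21 receptors summed to 24.0 FPKM in Tet2 KO against 6.86 FPKM in WT.

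**Figure D2:**
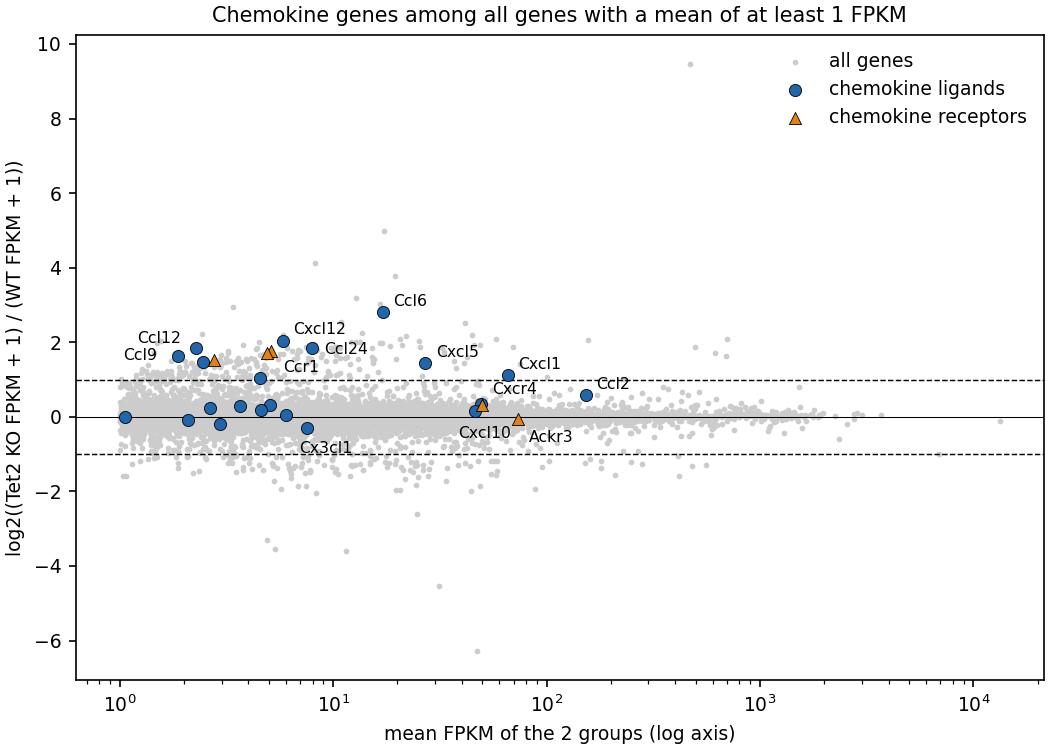
The log2 ratio of Tet2 KO to WT, with 1 FPKM added, against the mean FPKM on a log axis for all 11692 genes with a mean of at least 1 FPKM (grey), with 21 chemokine ligands as blue circles and 5 receptors as orange triangles. The dashed lines mark 2-fold, above which lie 9 ligands and 3 receptors, while no ligand or receptor lies below the lower line.

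When each ligand was set beside its best known receptors, most ligands had none at this level. Of 18 ligands above the mean of 1 FPKM with a receptor on the list, 6 had a receptor that also reached it and 12 had none. The 6 were Ccl2, Ccl6, Ccl7, Ccl9 and Ccl12 with Ccr1 or Ccr2, and Cxcl12 with Cxcr4 and Ackr3. For Ccl6, Ccl9 and Ccl12 both the ligand and its receptor were at least 2-fold higher in Tet2 KO. For Ccl2 and Ccl7 only the receptor was, and for Cxcl12 only the ligand was. Ccl9 and Ccl12 had reached the mean only through their Tet2 KO value and so had to differ. Ccl6 was at 1 FPKM or more in both groups. The Cxcr2 ligands Cxcl1 and Cxcl5 and the Ccr3 ligand Ccl24 were at least 2-fold higher beside receptors under 1 FPKM, with Ccr3 at 0.0058 and 0.017 FPKM.

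Chemokine genes lie in clusters, and members that were at least 1 Mb apart from the next were treated as separate. On chromosome 11, the MCP cluster (81849079 to 81993314 in mm9) held Ccl2, Ccl7, Ccl11, Ccl12, Ccl8 and Ccl1. Of these, 5 reached the mean of 1 FPKM, with log2 ratios from -0.01 to 1.86, and 2, Ccl12 and Ccl8, were at least 2-fold higher. Ccl12 reached the mean only through its Tet2 KO value, and Ccl8 was just past 2-fold. Of all genes at this mean, 2.08% were at least 2-fold higher. The MIP cluster of the same chromosome (83339281 to 83478185) held Ccl5, Ccl9, Ccl6, Ccl3 and Ccl4, of which 3 reached the mean and all 3 were at least 2-fold higher. Its summed FPKM was 39.7 in Tet2 KO and 5.35 in WT. Ccl9 and Ccl4 reached the mean only through Tet2 KO, so Ccl6 is the gene of this cluster at 1 FPKM or more in both groups, and Ccl5, below the mean, had an FPKM ratio of 1.13.

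On chromosome 5, the cluster of Cxcr2 ligands (91188324 to 91334964) held 3 genes at the mean of 1 FPKM, of which Cxcl5 and Cxcl1 were at least 2-fold higher and Cxcl3 was not. Pf4 (platelet factor 4), a CXC chemokine whose name kept it outside the rule, lies in it and was at 27.6 FPKM in Tet2 KO against 6.18 FPKM in WT, with a log2 ratio of 1.99. The cluster of Cxcl9, Cxcl10 and Cxcl11 on the same chromosome had no gene past 2-fold. On chromosome 9, the receptor cluster held Ccr1 and Ccr2, which were at least 2-fold higher. Cdkn2d and Fyco1, the other genes listed inside this cluster above the mean of 1 FPKM, were not past 2-fold and had a median log2 ratio of -0.19.

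**Figure D3:**
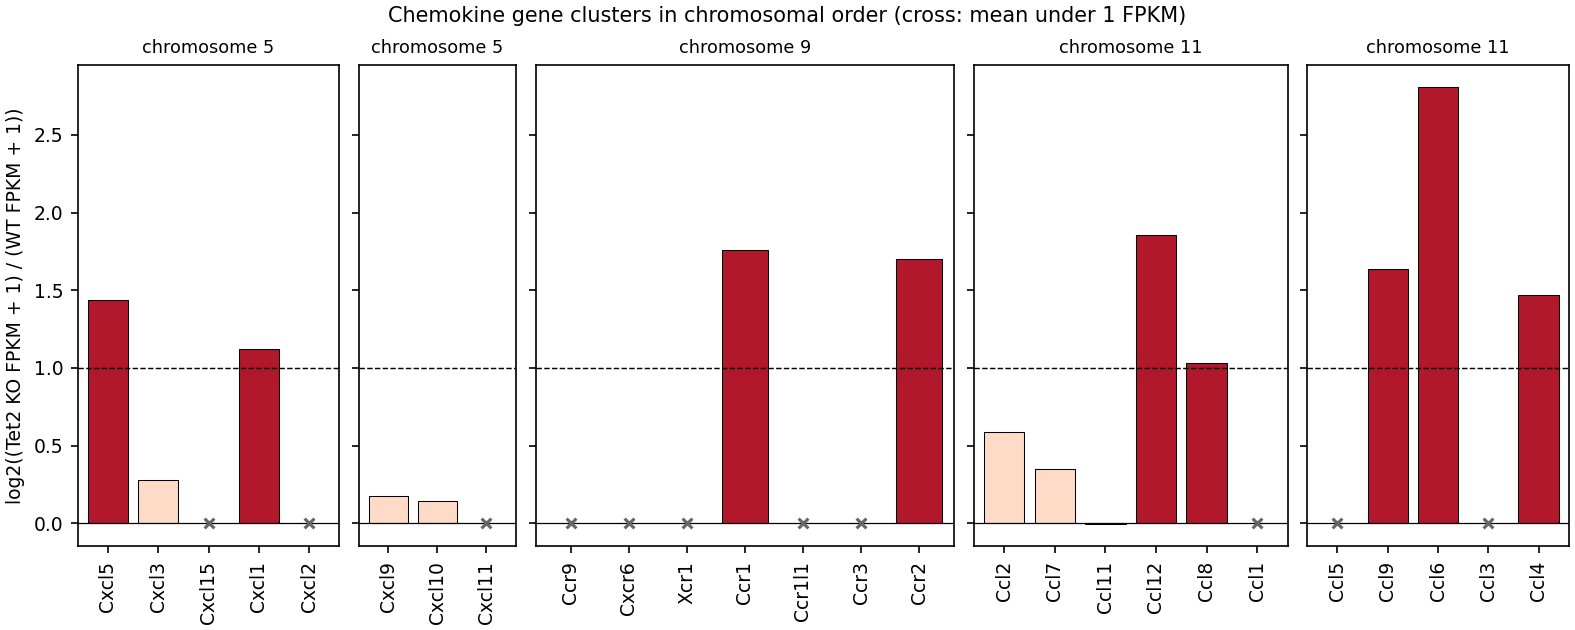
The log2 ratio of Tet2 KO to WT, with 1 FPKM added, for the genes of 5 chemokine clusters in chromosomal order. Dark red bars are past 2-fold (dashed line), pale bars are not, and crosses stand for genes under a mean of 1 FPKM, which have no bar. The clusters with Ccl6 and with Ccr1 and Ccr2 have dark bars for each gene drawn as a bar, and the cluster with Cxcl9 and Cxcl10 has none.

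Most genes that act downstream of the receptors were not past 2-fold, but the share past it exceeded that of all genes. Of 33 receptor signalling genes in the table, 26 reached the mean of 1 FPKM, with a median log2 ratio of 0.14. Of the 26, 5 (19.2%) were at least 2-fold higher, against 2.08% of all genes, and none was lower by that much. Among the 5 were Rac2, Vav1, Dock2 and Was, which are known from blood cells. Rac2, a GTPase of leukocyte migration, was at 5.11 and 1.20 FPKM (log2 ratio 1.47), and Vav1, an exchange factor for Rac proteins, was at 3.64 and 0.833 FPKM (log2 ratio 1.34). The lowest log2 ratio was that of Cdc42, a widely used GTPase, at 225 and 251 FPKM (-0.16), and Gng2, a G protein subunit, was at 11.1 and 12.5 FPKM (-0.16). The receptor signalling genes under the mean of 1 FPKM had FPKM ratios of Tet2 KO to WT from 2.45 to 10.1.

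Cytokines, receptors and transcription factors that induce chemokine genes were not past 2-fold in either direction with 1 FPKM added. Of 23 such genes 21 reached the mean of 1 FPKM, with a median log2 ratio of 0.16. The highest were Il6 at 22.8 FPKM in Tet2 KO against 11.1 FPKM in WT (log2 ratio 0.98) and Tnf at 2.29 and 0.699 FPKM (0.95), both just under 2-fold with 1 FPKM added. Without it their FPKM ratios were 2.06 and 3.27, both past 2-fold. The lowest were Il1b at 2.08 and 2.81 FPKM (-0.31) and Jun at 48.2 and 56.1 FPKM (-0.22). The interferon response genes also had none past 2-fold among 17 above the mean of 1 FPKM. Their median log2 ratio was -0.03, with a range from -0.28 for Ifit1 to 0.47 for Gbp2. Of all genes, 2.08% were at least 2-fold higher and 1.21% lower, so a count of 0 does not set lists of this size apart. Like Cxcl9 and Cxcl10, the interferon genes were at near equal levels in the 2 groups.

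Some proteases that cut chemokines were higher in Tet2 KO. Of 15 proteases and proteoglycans that cut or hold chemokines, 13 reached the mean of 1 FPKM, with a median log2 ratio of 0.58. Of the 13, 5 (38.5%) were at least 2-fold higher, against 2.08% of all genes. The 5 were Ctsg, Mmp12, Prtn3, Elane and Mmp8, which are neutrophil and macrophage proteases, and Elane and Mmp8 also stand on the neutrophil marker list. Mmp9, on that list as well, was under 2-fold with 1 FPKM added (log2 ratio 0.80), as was Mmp2 (0.58). Their FPKM ratios were 3.15 and 1.77. Ctsg (cathepsin G) was at 36.4 FPKM in Tet2 KO against 7.31 FPKM in WT (log2 ratio 2.17), and Mmp12 (macrophage elastase) was at 13.6 and 2.79 FPKM (1.94). The heparan sulphate proteoglycans, which hold chemokines at the cell surface, were not past 2-fold. Hspg2 (perlecan) was at 12.04 and 17.38 FPKM (-0.50), and Gpc1 (glypican-1) was at 132 and 146 FPKM (-0.15).

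Markers of leukocytes were higher in Tet2 KO alongside the chemokine genes. All 19 pan-leukocyte and myeloid markers in the table reached the mean of 1 FPKM and 16 (84.2%) were at least 2-fold higher, against 2.08% of all genes. Their median log2 ratio was 1.59, with summed levels of 566 FPKM in Tet2 KO against 145 FPKM in WT. Of 15 neutrophil markers, 13 reached the mean and 11 of these (84.6%) were at least 2-fold higher (median 1.72), with sums of 2027 and 570 FPKM, most of it S100a8 and S100a9. Of 14 macrophage markers, 12 reached the mean and 9 of these (75%) were at least 2-fold higher (median 1.43), with sums of 113 and 34.1 FPKM. Of these 3 lists Ltf, a granule protein of neutrophils, had the highest log2 ratio (2.503), while Cd163, a marker of resident macrophages, was near 0 at 0.017 and 0.021 FPKM. The part of these cells in the higher chemokine values was not tested.

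Lymphocyte and endothelial markers were low, and some fibroblast markers were higher in Tet2 KO. None of 13 lymphocyte markers reached the mean of 1 FPKM, their highest value was 1.09 FPKM for Lck, and Cd3e, Cd4, Cd8a and Ms4a1 were each below 0.1 FPKM in both groups. Of 9 endothelial markers only Pecam1 reached the mean, at 1.48 and 1.63 FPKM. Of 12 fibroblast markers 9 reached the mean, with a median of 0.32 and Postn lowest at -0.50. Of the 9, 1 (11.1%), Mfap5, was at least 2-fold higher (3.27 and 1.13 FPKM, log2 ratio 1.00), against 2.08% of all genes. Dcn, a matrix proteoglycan, was at 7.04 and 3.15 FPKM (log2 ratio 0.95), Col1a2 was 1.81 times and Pdgfra 1.80 times as high by FPKM, and Lum, under the mean of 1 FPKM, was 2.29 times as high. Other markers of this list were closer to equal, with FPKM ratios of 1.37 for Col1a1, 1.13 for Col3a1, 1.12 for Thy1 and 1.04 for Ly6a. Under the mean, the ratio was 1.38 for Fap and 0.69 for Dpt. The part of fibroblasts in the Cxcl12 value was not tested. The 8 myoblast markers had a median log2 ratio of -0.10, with Ncam1 lowest at -0.65 and Vcam1 highest at 0.28, and sums of 1167 and 1305 FPKM.

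**Figure D4:**
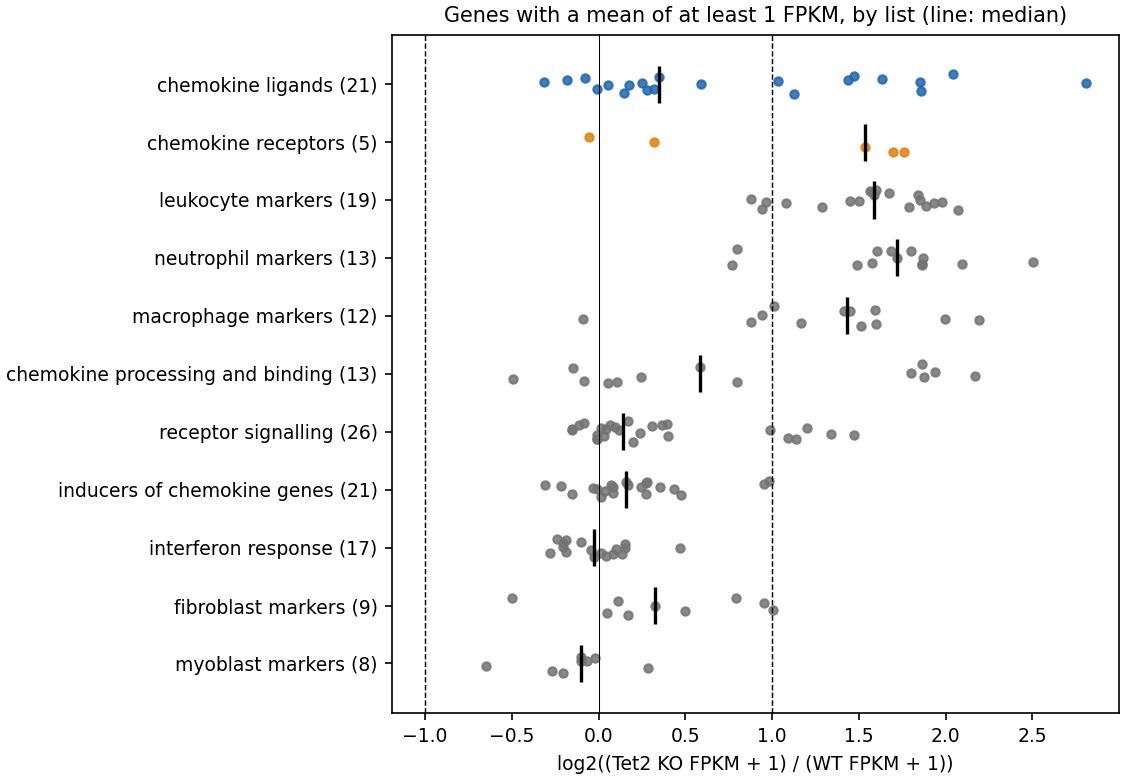
The log2 ratio of Tet2 KO to WT, with 1 FPKM added, for each gene with a mean of at least 1 FPKM in the chemokine ligands (blue), the chemokine receptors (orange) and 9 other lists (grey). The number of genes is in brackets, the black line is the median and the dashed lines are 2-fold; points are spread vertically for view. Medians are 0.35 for ligands, 1.53 for receptors, 1.59 for leukocyte markers and -0.10 for myoblast markers.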

How the data were processed

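RNA-seq was measured in 2 WT and 2 Tet2 KO libraries. As the submitters' processing notes list them, the tools were CASAVA, FastQC, TopHat2 2.0.13 and Cuffdiff 2.2.1 with mm9, and the methods name a TruSeq kit that does not mark strand. The authors deposited 1 table with a pooled FPKM value per gene and group. How the libraries were combined and which annotation was counted are not given in the sources used here, and counts and depth are unknown. The table also holds the authors' own log2 ratios, statistics, p-values and q-values for this comparison, which were not used. Each gene's log2((Tet2 KO FPKM + 1)/(WT FPKM + 1)) was computed with Python 3.11.15, pandas 2.3.3 and numpy 2.4.6, for genes with a mean of at least 1 FPKM, and a gene past 2-fold on that scale was counted. The calculation was tested on simulated data. No test could be computed from the pooled values, and the 2 libraries of a group may be technical.

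The members, marker lists and pathway lists were chosen with earlier results of these data known. Named were all members with a mean of at least 1 FPKM, the 5 others with the highest value, up to 2 genes at each end of the other lists, and Tet2. Some genes that this rule takes in are not reported here by name, although counts, sums and medians include them; the ligand and receptor pairs leave them out. Further genes, such as Ptprc, Itgam, Ly6a, Cd163, Ccl5, Marco, Dcn, Col1a1, Col1a2, Col3a1, Thy1, Fap, Dpt, Pdgfra, Lum, Mmp9, Mmp2, Ccr7, Ccr3, Cxcr3 and those counted as past 2-fold or lying in a cluster, were named after their values were seen. Positions are those of the table, or of GENCODE vM1 where they match it, in mm9. Transcripts were compared with BLAST+ 2.17.0. Alternatives were a pseudocount of 0.1 FPKM or none, other minimum levels, TPM, centring, a threshold of 1.5-fold and leaving out the highest gene of each class.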

Additional observations from a re-analysis of the deposited data

How the results depend on the processing

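No paired analysis was possible because the table holds 1 pooled value per group, and leaving out each library could not be run for the same reason. Against -1.18, the ligand median minus the receptor median turned to 0.27 with a mean of at least 5 FPKM and to 0.12 with no minimum, and was -0.71 with at least 1 FPKM in both groups; fewer or more low genes enter by construction. The receptor median of 1.53 was 0.32 with a mean of at least 5 FPKM and 0 with no minimum. At that minimum of 5 FPKM, 5 ligands instead of 9, 1 receptor instead of 3 and 109 of all genes instead of 243 were at least 2-fold higher. With a threshold of 1.5-fold, 435 of all genes were higher and 338 lower instead of 142. Of all genes, 215 were lower with 0.1 FPKM added and 224 with none. Ccl3 was past 2-fold in TPM (1.31) and, with Cxcr2 (1.16), with 0.1 FPKM added (2.51). The alternatives without a pseudocount and with 1 FPKM in both groups were chosen after seeing the data. In TPM, with centring or with 0.1 FPKM added, no named chemokine gene changed direction, and TPM or centring moved the median of all genes by at most 0.0044. Without replicate values or depth, no difference can be set against the spread between libraries, and values near or under 1 FPKM, such as those of Ccl12, Ccl9 and Ccl4 in WT, rest on unknown numbers of reads.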

Other observations

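The FPKM ratios of the chemokine genes can be set beside those of the myeloid markers, without a pseudocount. Over the 40 leukocyte, neutrophil and macrophage markers with a mean of at least 1 FPKM (each counted once), the ratio of Tet2 KO to WT had a median of 3.99, with the 25th and 75th percentiles at 3.10 and 4.34 and a highest value of 7.05. Ccr1 and Ccr2 at 4.72 and 4.51, Ccl24 at 4.53, Ccl4 at 4.89 and Pf4 at 4.46 lay above the 75th percentile of the markers and below their highest value. Cxcl12 at 6.00 lay in the same range. Ccl6, Ccl9 and Ccl12 at 8.71, 8.43 and 9.89 lay above the highest ratio of these 40 markers, with WT values of 0.395 and 0.417 FPKM for Ccl9 and Ccl12 and 3.51 FPKM for Ccl6. Ccl4, Ccl9 and Ccl12 had reached the mean only through Tet2 KO. Marco, a macrophage marker under the mean of 1 FPKM, had a ratio of 9.61, above those of Ccl6 and Ccl9. Cxcl1, Cxcl5 and Ccl8 at 2.21, 2.83 and 2.44 and Ccl2 at 1.51 lay below the 25th percentile. These comparisons were chosen after the values were seen and have no test.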
